A study of Mus musculus with 6 samples.

Results

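The 40 genes described here encode the enzymes that take glucose to pyruvate and lactate (glycolysis, 18 genes), the pyruvate dehydrogenase complex with 1 of its kinases (5 genes), and the enzymes of the tricarboxylic acid (TCA) cycle (17 genes). They are a list of named enzymes of these pathways, out of 32899 gene symbols that could be assembled from the deposited transcript table; the rule uses no measured value, but the list was drawn up with earlier results of these data known. They were measured by RNA sequencing of polyadenylated RNA in MuTuDC1940, a mouse dendritic cell line of the type 1 conventional (cDC1) kind. The series has 3 samples of untreated cells and 3 of cells given the double-stranded RNA mimic poly(I:C) at 5 µg/ml, and RNA was taken at 18 hours; the study asked which genes the stimulus raises. All samples are the same line, a tumour-derived line grown from a transgenic mouse whose dendritic cells carry a viral large T antigen, so both groups share that background. Only 2 libraries of each group could be tied to their group and were used: NT01 and NT02 (untreated), and PolyIC01 and PolyIC02 (treated), named here by their column headings.

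Glycolysis splits glucose into pyruvate in the cytosol and yields ATP quickly. Pyruvate is either reduced to lactate or carried into mitochondria, where pyruvate dehydrogenase turns it into acetyl-CoA for the TCA cycle, whose reduced cofactors feed the respiratory chain. Dendritic cells activated through Toll-like receptors are known for raising glucose use soon after the stimulus, and activated myeloid cells are known for drawing citrate and succinate off the cycle. Messenger RNA levels, the quantity measured here, do not give enzyme activity or flux.

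Levels are TPM, a share of all transcripts in a library after scaling for transcript length, summed over the transcripts of a gene. How deeply each library was sequenced cannot be read from TPM and is unknown. Between 11204 and 11581 genes reached 1 TPM in each library. Across genes, log2 levels correlated at r = 0.997 between the libraries of a group and at 0.956 to 0.959 between groups. All 7 interferon response genes of a check list rose (median log2 fold change 3.73) and all 10 proliferation genes fell (median -1.17, summed level 1528 and 1488 TPM untreated against 734 and 726 TPM treated). The defining cDC1 genes Xcr1, Clec9a, Irf8 and Batf3 were each above 100 TPM in all 4 libraries, while Itgae was below 1 TPM. Of 11 cDC1 markers, 5 rose, among them Xcr1 (0.78), and 4 fell, namely Tlr3 (-0.81), Flt3 (-0.74), Cd8a (-0.35) and Batf3 (-0.30); their sum of 3744 to 3954 TPM is mostly Irf8. Summed macrophage and monocyte markers were higher with treatment (292 and 289 TPM against 513 and 528 TPM; 5 of 7 tested rose and 1 fell, with Mertk and Csf1r below 0.5 TPM). Plasmacytoid markers summed to at most 202 TPM untreated and to 1303 and 1277 TPM treated, almost all of it Bst2, an interferon-induced gene. T and B cell markers summed to 4.29 and 4.30 TPM untreated and 8.49 and 7.28 TPM treated; both tested ones, Cd3d and Ms4a1, rose, and Cd3e and Cd3g were listed at 0. Epithelial and fibroblast markers summed to 10.5 and 11.7 TPM untreated and 7.90 and 7.99 TPM treated; both tested ones, Epcam and Cdh1, fell, and Col1a2 and Pdgfra were listed at 0. The summed cDC2 list was 13.2 and 12.6 TPM untreated and 8.85 and 8.87 TPM treated. Of 4 tested, 1 rose (Sirpa, log2 fold change 1.34) and 1 fell (Itgam, -0.82). Itgam made up most of that sum in each library, and Cd209a was listed at 0. What part these cell-state and marker shifts have in the enzyme results was not tested. In bulk RNA a smaller share of cells that express a gene and less of its RNA per cell cannot be told apart.

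With poly(I:C) the 3 hexokinase genes at the entry of glycolysis rose. Of the 8 genes from hexose phosphate to triose phosphate 1, Pfkp, rose and 3 fell. With curated transcripts alone the rises of Hk1 and Pfkp did not pass (adjusted p = 0.0688 and 0.0908 by limma). The main trunk from triose phosphate to lactate did not pass the test, and most genes of pyruvate dehydrogenase and the TCA cycle fell. Of 38 genes that reached the test limit of a mean of 0.5 TPM, 5 rose (Hk1, Hk2, Hk3, Pfkp and Cs), 19 fell and 14 did not pass. A gene was called where the adjusted p of the limma fit over all 12517 tested genes was under 0.05. Among all genes tested, 28.4% rose and 32.5% fell, so a call in itself was common. Against that background, 4 of 17 tested glycolytic genes rose (23.5%) and 3 fell (17.6%). Of the 5 genes of pyruvate dehydrogenase and its kinase Pdk1, 4 fell, and 12 of 16 tested TCA cycle genes fell (75%) while 1 rose. The median log2 fold change was -0.08 for glycolysis, -0.22 for pyruvate dehydrogenase and -0.34 for the TCA cycle, against -0.02 over all genes tested. Ldhb and Idh2 lay below the limit in both groups. Fold changes are differences of log2(TPM + 1), and for weakly expressed genes this scale shows less than the ratio of TPM. The labels do not say whether samples came from separate cultures, so p-values reflect only variation among these libraries, which may be technical. An exact permutation of 2 libraries against 2 cannot go below p = 0.333, so the calls rest on the spread that limma borrows across genes.

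**Figure D1:**
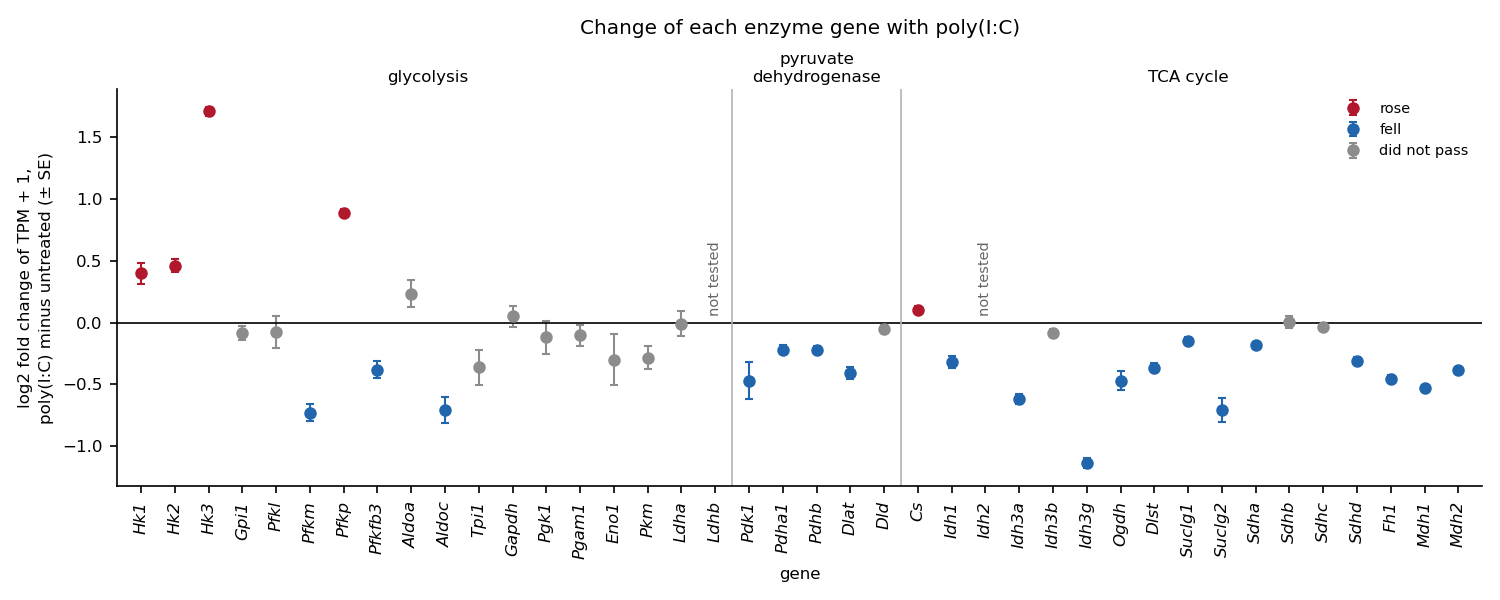
Log2 fold change of TPM + 1 (y axis, poly(I:C) minus untreated, bars ± SE of the limma fit, 2 libraries per group) for each of the 40 genes (x axis, in pathway order); red rose, blue fell, grey did not pass, and the 2 genes below the limit are marked as not tested. Hk3 at 1.71 and Pfkp at 0.89 stand above all other genes, and Idh3g at -1.14 stands below them, with 12 of 16 tested TCA cycle genes under 0 and called.

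Hexokinases phosphorylate glucose and so trap it in the cell. All 3 measured hexokinase genes rose, and in none did the groups overlap. Hk3 (chr13:55005985-55021475 in GRCm38.p6), the isozyme typical of myeloid cells, was at 51.2 and 48.4 TPM in NT01 and NT02 (untreated) and at 166 and 165 TPM in PolyIC01 and PolyIC02. That is a 3.31-fold rise of mean TPM (log2 fold change 1.71, SE 0.037, adjusted p = 2.51e-06 by limma). Hk2 (chr6:82725025-82774454), an inducible isozyme that binds mitochondria, was at 33.6 and 31.3 TPM untreated and 45.9 and 44.2 TPM treated (log2 fold change 0.46, SE 0.052, adjusted p = 0.000724 by limma). Hk1 (chr10:62268855-62379920), the widespread isozyme, was at 16.8 and 20.0 TPM and then 24.7 and 24.3 TPM (log2 fold change 0.40, SE 0.085, adjusted p = 0.00955 by limma). Both treated libraries were higher than both untreated ones for each gene, and the step was largest for Hk3. The Hk1 call depends on a predicted transcript that held 82.2% to 86.2% of its TPM: with curated transcripts alone the log2 fold change was 0.40 and the adjusted p 0.0688 by limma, the highest of a range from 0.000449 over 14 alternatives.

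The summed hexokinase level was 101.6 and 99.7 TPM in untreated cells and 236 and 233 TPM in treated cells. Hk3 made up 50.4% and 48.6% of that sum before and 70.1% and 70.6% after treatment. The Hk2 share was 33.1% and 31.4% untreated and 19.4% and 19.0% treated, although Hk2 itself rose. The Hk3 share with curated transcripts alone was 61.2% and 60.8%, then 78.5% and 78.8%. The shift towards Hk3 is visible in both ways of summing.

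**Figure D2:**
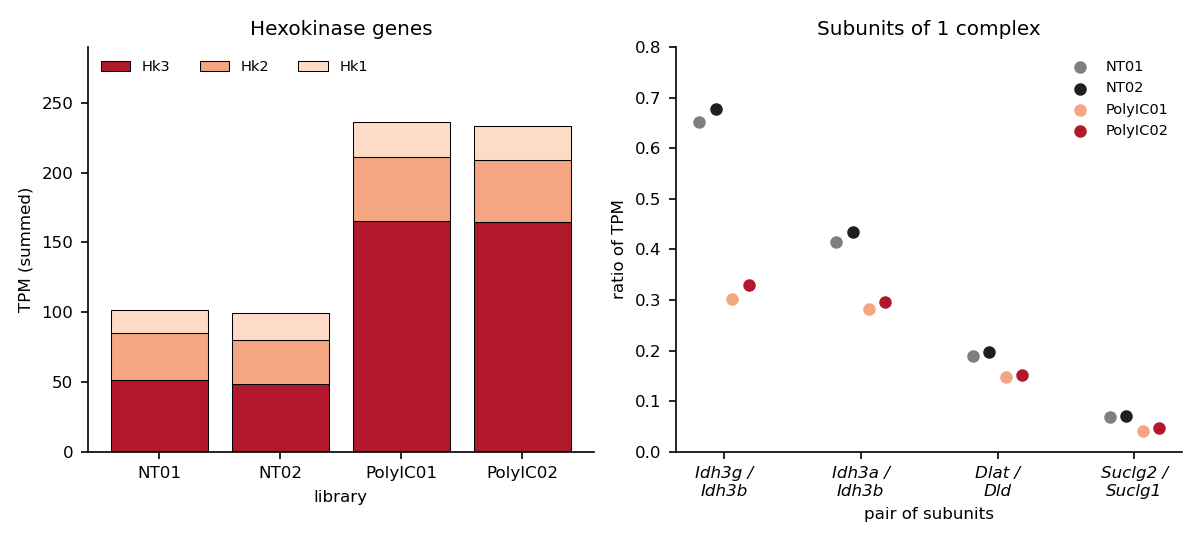
Left, summed TPM of the 3 hexokinase genes (y axis) in each of the 4 libraries (x axis), stacked by gene: the sum stands at 101.6 and 99.7 in untreated and at 236 and 233 in treated libraries, with Hk3 the largest part of each bar. Right, ratio of TPM between subunits of the same complex (y axis) in each library: Idh3g to Idh3b stands at 0.652 and 0.677 in untreated and at 0.302 and 0.329 in treated libraries, and the groups do not overlap in any of the 4 pairs drawn.

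The promoters of these 2 genes are shown because Hk3 and Hk2 rose while the trunk genes below them did not pass; they are the RefSeq windows of 300 bases, from 250 before to 50 after the start site (GRCm38.p6), read 5′ to 3′ on the gene's strand. Capitals mark ACGTG, the core of the hypoxia response element, or its reverse complement CACGT. Hk3 lies on the minus strand (chr13:55021336-55021635) and holds 1 match, at -156 from the start; Hk2 also lies on the minus strand (chr6:82774405-82774704) and holds 2, at -226 and -52.
Hk3: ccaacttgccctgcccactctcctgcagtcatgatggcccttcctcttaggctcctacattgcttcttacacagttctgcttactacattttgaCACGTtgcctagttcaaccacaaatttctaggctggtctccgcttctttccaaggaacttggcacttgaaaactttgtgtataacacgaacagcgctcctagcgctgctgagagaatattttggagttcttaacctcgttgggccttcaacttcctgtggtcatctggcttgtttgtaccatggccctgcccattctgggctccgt
Hk2: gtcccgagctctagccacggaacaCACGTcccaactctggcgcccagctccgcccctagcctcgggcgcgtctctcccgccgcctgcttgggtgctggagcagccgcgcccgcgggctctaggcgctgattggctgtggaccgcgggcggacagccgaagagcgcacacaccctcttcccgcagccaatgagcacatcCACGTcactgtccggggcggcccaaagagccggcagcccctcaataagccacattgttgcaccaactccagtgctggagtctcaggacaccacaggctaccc

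ACGTG was found on either strand in the promoters of 12 of 18 glycolytic genes and of 5 of 20 matched pyruvate dehydrogenase and TCA cycle genes. Counted by promoter, since some genes list several, it was in 50% of 30 and 37% of 27, against 19.6% of all 32851 promoters in the table. The promoters of both groups also had more G and C (medians of 60.0% and 61% against 52.7%), and whether that accounts for the shares was not tested. The match was present in genes that rose (3 of 5, namely Hk1, Hk2 and Hk3), that fell (8 of 18 matched) and that did not pass. Counted by promoter, it was in 50% of the 6 of genes that rose and in 50% of the 30 of genes that fell. The E-box CACGTG, which contains ACGTG, was found in Ldha, Pfkfb3, Pfkm and Ogdh and in 7.15% of all promoters. The interferon-stimulated response element core (GAAA repeated after 2 free bases) was found in Suclg2 alone (3.44% of all promoters), the gamma-activated site TTCNNNGAA in Aldoc and Pfkm (8.30%), the NF-kB site in Ogdh and Sdhb (4.51%), and the NRF1 site (GCGC repeated after 2 free bases) in 7 of 57 promoters of the 40-gene set (12.3%, against 6.23% of all promoters), each searched on both strands. These are letter matches in a short window, and no factor binding was measured. Promoters of 38 of the 40 genes were in the table.

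Phosphofructokinase carries out the committed step of glycolysis, and its genes moved apart. Pfkp (chr13:6579874-6649060), the platelet-type subunit, was at 422 and 445 TPM untreated and 810.1 and 797 TPM treated, a 1.85-fold rise of mean TPM (log2 fold change 0.89, SE 0.032, adjusted p = 1.21e-05 by limma). Pfkm (chr15:98092589-98132447), the muscle-type subunit, fell from 14.3 and 15.3 TPM to 8.90 and 8.14 TPM (log2 fold change -0.73, SE 0.072, adjusted p = 0.000435 by limma). Pfkl, the liver-type subunit, was at 11 and 14.6 TPM and 11.8 and 12.2 TPM and did not pass (log2 fold change -0.07, SE 0.13, adjusted p = 0.649 by limma). The groups did not overlap for Pfkp and Pfkm, in opposite directions, while for Pfkl the treated values lay between the untreated ones. Pfkp held 94.3% and 93.7% of the summed phosphofructokinase TPM untreated and 97.5% in both treated libraries.

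That dominance of Pfkp rests on which transcripts are counted. A single predicted transcript without a coding sequence carried 86.4% to 89.6% of Pfkp TPM, and the sum of its curated transcripts was only a small part of the total. With curated transcripts alone the Pfkp share was 21.3% and 23.9% untreated and 33.0% and 38.8% treated. Its log2 fold change was then 0.44 with an adjusted p of 0.0908 by limma, the highest of a range from 1.06e-06 over 14 alternatives. With all protein-coding transcripts, predicted ones included, it was 0.49 with an adjusted p of 0.0307 by limma. Pfkfb3, which makes the fructose bisphosphate that activates phosphofructokinase, fell from 11.5 and 11 TPM to 8.68 and 8.13 TPM (log2 fold change -0.38, SE 0.067, adjusted p = 0.00443 by limma). Predicted transcripts also carry most of Pfkfb3: with curated ones alone its log2 fold change was 0.06 and did not pass (adjusted p = 0.657 by limma; range over 14 alternatives 0.0018 to 0.657).

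Gpi1 isomerises glucose phosphate ahead of phosphofructokinase, and after it aldolase cleaves the bisphosphate into triose phosphates, which Tpi1 interconverts. Aldoa, the main aldolase gene with 98.1% to 99.1% of the family's TPM, was at 1320.0 and 1609 TPM untreated and 1676 and 1752 TPM treated and did not pass (adjusted p = 0.138 by limma). Aldoc (chr11:78323073-78327781), the minor aldolase, fell from 25.5 and 31 TPM to 16 and 17.8 TPM (log2 fold change -0.71, SE 0.10, adjusted p = 0.00251 by limma). The 2 aldolase genes thus differ in call, although the difference between their changes was not tested. Gpi1 and Tpi1 did not pass, at log2 fold changes of -0.08 and -0.36 (adjusted p = 0.236 and 0.0979 by limma).

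Of the genes from glyceraldehyde phosphate to lactate, 0 of the 6 tested passed in the limma fit (1, Pkm, had an unadjusted p under 0.05). They include abundant genes: over all 40 genes in untreated cells the order of mean levels began with Gapdh (4096 TPM), Ldha (1561), Aldoa (1465), Pkm (1437) and Pgam1 (941), and the ranges of Ldha, Aldoa and Pkm over the untreated libraries overlapped. Gapdh, which makes the first NADH of the pathway, was at 3777 and 4416 TPM untreated and 4170.0 and 4287 TPM treated (log2 fold change 0.05, SE 0.083, adjusted p = 0.635 by limma). Pkm, pyruvate kinase, was at 1313 and 1561 TPM and 1145 and 1202 TPM (log2 fold change -0.29, SE 0.093, adjusted p = 0.059 by limma), with both treated libraries below both untreated ones. The curated transcript of its M1 form was listed at 0 in all 4 libraries, and that of the M2 form took 22.0% to 23.0% of Pkm TPM, the rest being on predicted transcripts. Ldha, which reduces pyruvate to lactate, was at 1419 and 1703 TPM and 1494 and 1590.0 TPM (log2 fold change -0.01, SE 0.10, adjusted p = 0.931 by limma). For Gapdh and Ldha both treated values lay between the untreated ones. Ldhb, the other lactate dehydrogenase subunit, was at 0.469 and 0.503 TPM and 0.323 and 0.225 TPM, so Ldha held 99.97% to 99.99% of the pair. Pgk1, Pgam1 and Eno1 had log2 fold changes of -0.12, -0.10 and -0.30 (adjusted p from 0.278 to 0.491 by limma). Several of these genes have near-identical retrocopies in the mouse genome that can share reads, so their levels are less certain.

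**Figure D3:**
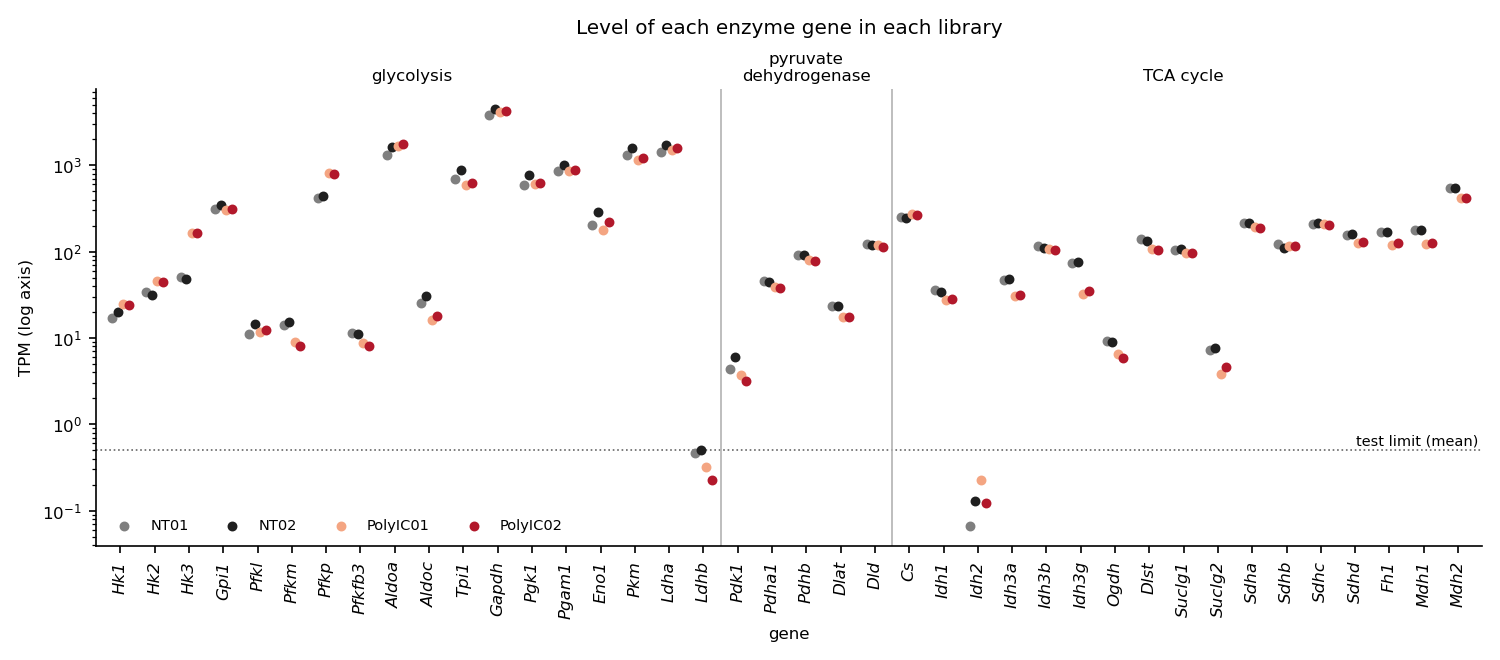
TPM (y axis, log scale) of each of the 40 genes (x axis, in pathway order) in each library (grey and black untreated, light and dark red treated); the dotted line is the mean of 0.5 TPM needed for the test. Gapdh stands highest at 3777 to 4416 TPM, Ldhb and Idh2 lie below the line, and the black points of NT02 stand above the grey points of NT01 for most glycolytic genes.

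The wide spread of the trunk genes lies between the untreated libraries. In 14 of 17 tested glycolytic genes the level was higher in NT02 than in NT01, against 32.5% of all genes tested, and the median log2 difference was 0.24 for glycolysis against -0.04 over all genes. The difference was 0.49 for Eno1, 0.38 for Tpi1, 0.38 for Pfkl, 0.37 for Pgk1, 0.26 for Ldha and 0.23 for Gapdh. Between the treated libraries the glycolytic median was 0.05. Of the TCA cycle genes 7 of 16 were higher in NT02, with a median of -0.01. The summed glycolytic level was 11068 TPM in NT01 and 13211 TPM in NT02, on either side of the treated sums of 12122 and 12576 TPM.

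Which untreated library is kept decides how many glycolytic genes are called. Without NT01, 10 of the 17 fell instead of 3, among them Pgk1 (log2 fold change -0.30), Pgam1 (-0.22), Ldha (-0.14) and Gpi1 (-0.16). Without NT02, 5 fell and 6 rose, the added rises being Gapdh (0.16) and Aldoa (0.38). Tpi1 and Pkm fell in either case (-0.55 and -0.41 without NT01, -0.17 and -0.16 without NT02), but neither passed with both untreated libraries. Without PolyIC01 or PolyIC02 neither passed (adjusted p = 0.47 and 0.382 for Tpi1, 0.319 and 0.225 for Pkm by limma). When 1 untreated library is left, it adds no spread of its own, and the error comes from the treated pair and the spread borrowed across genes. Among genes of the related lists with a large gap between NT01 and NT02 were the lactate exporter Slc16a3 (26.1 and 52.9 TPM), the mitophagy receptor Bnip3 (19.6 and 35.4 TPM) and the oxygen sensor Egln1 (44.8 and 58 TPM), all higher in NT02, and the histone demethylase Kdm3a (17 and 9.35 TPM), lower in NT02. The nuclear receptor gene Esrra (11.1 and 18.5 TPM), the ADP-dependent glucokinase gene Adpgk (16.1 and 21.7 TPM) and Pgm1 (49.1 and 65.3 TPM), not on the hypoxia list, were also higher in NT02. Their log2 gaps (0.70, 0.41 and 0.41) were above that of Egln1 (0.37) and below those of Slc16a3 (0.995) and Bnip3 (0.82). Slc16a3, Bnip3, Egln1 and Kdm3a are known targets of hypoxia-inducible factor. They were named after their values were seen, as were Esrra, Adpgk and Pgm1. A list of 13 tested genes covers that factor, its regulators and its targets outside glycolysis. Of these, 7 were higher in NT02, against 32.5% of all genes tested. What sets the untreated libraries apart was not tested.

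**Figure D4:**
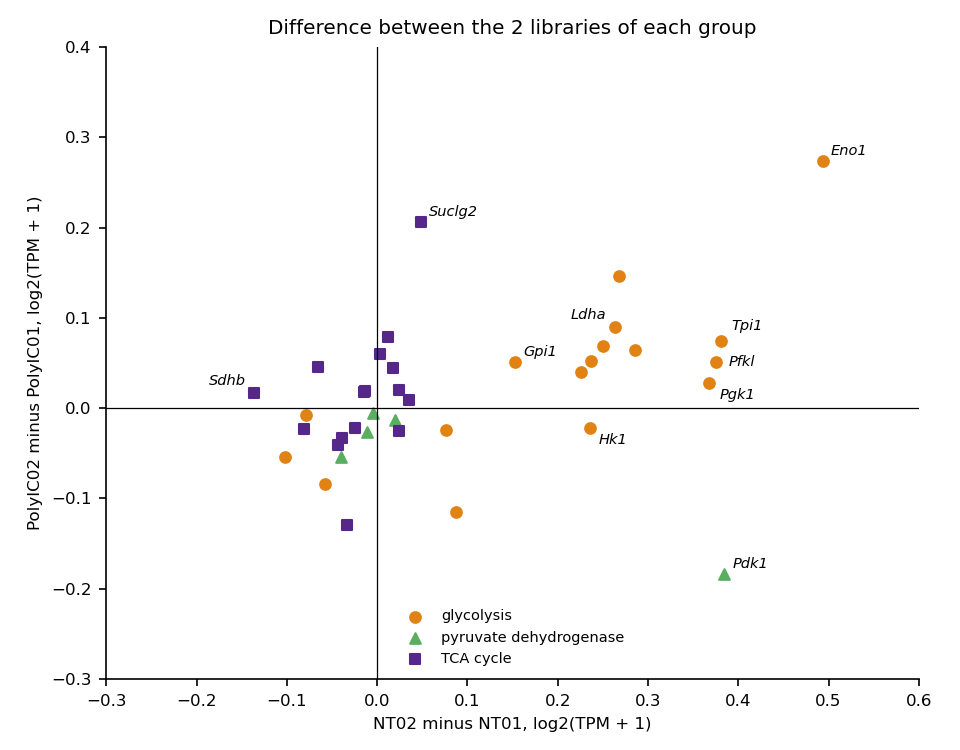
Log2 difference in TPM + 1 between the untreated libraries (x axis, NT02 minus NT01) and between the treated libraries (y axis, PolyIC02 minus PolyIC01) for each of the 38 tested genes, coloured and shaped by pathway. Most glycolytic genes lie well to the right of 0, with Eno1 at 0.49, while TCA cycle genes gather around the origin.

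The promoters of Ldha and Pgk1 are shown because these trunk genes changed call with the untreated library kept. Both lie on the plus strand of GRCm38.p6 (chr7:46845554-46845853 and chrX:106186850-106187149), and capitals again mark ACGTG or CACGT, or CACGTG where both overlap. Ldha, the first of its 2 listed promoters, holds CACGTG at -145 and -48 and a further CACGT at -34, and Pgk1 holds matches at -150 and -131. Each of these windows holds more matches than that of Hk3, and the Pgk1 window holds as many as that of Hk2.
Ldha: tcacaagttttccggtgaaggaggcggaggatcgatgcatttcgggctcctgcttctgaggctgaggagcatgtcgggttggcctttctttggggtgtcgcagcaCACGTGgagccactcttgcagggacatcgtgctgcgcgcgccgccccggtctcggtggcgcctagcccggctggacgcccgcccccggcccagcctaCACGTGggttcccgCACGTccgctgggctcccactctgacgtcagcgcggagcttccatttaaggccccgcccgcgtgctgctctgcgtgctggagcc
Pgk1: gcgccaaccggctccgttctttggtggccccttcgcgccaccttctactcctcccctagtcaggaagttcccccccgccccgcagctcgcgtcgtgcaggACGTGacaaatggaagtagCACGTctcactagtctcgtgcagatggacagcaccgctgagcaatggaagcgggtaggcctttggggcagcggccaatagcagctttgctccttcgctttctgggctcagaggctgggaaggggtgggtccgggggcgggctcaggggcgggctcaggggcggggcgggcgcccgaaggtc

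Pyruvate dehydrogenase joins glycolysis to the TCA cycle, and 4 of the 5 genes of the complex and its kinase Pdk1 fell. The falls were those of the subunits Pdha1, Pdhb and Dlat and of the kinase, which had the largest at a log2 fold change of -0.47. Pdha1 and Pdhb, the E1 subunits, had log2 fold changes of -0.22 and -0.22 (adjusted p = 0.00408 and 0.00136 by limma). Dlat, the E2 subunit, fell from 23.2 and 23.5 TPM to 17.4 and 17.3 TPM (log2 fold change -0.41, SE 0.048, adjusted p = 0.000914 by limma). Dld, the E3 subunit that the 2-oxoglutarate complex also uses, was at 122 and 119 TPM and 119 and 114 TPM and did not pass (log2 fold change -0.05, SE 0.034, adjusted p = 0.243 by limma). In all 5 genes both treated libraries were below both untreated ones, a pattern that 42.4% of all tested genes shared. The Dlat to Dld ratio of TPM was 0.189 and 0.198 untreated and 0.147 and 0.151 treated, with no overlap.

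Pdk1, a kinase that switches the complex off, was at 4.42 and 6.08 TPM untreated and 3.77 and 3.20 TPM treated (log2 fold change -0.47, SE 0.15, adjusted p = 0.0385 by limma). This call is fragile: the adjusted p was 0.099 by limma without NT02, 0.0528 without PolyIC01 and 0.147 without PolyIC02, and over 13 alternatives it ran from 0.00272 to 0.147. Pdk3 held most of the kinase family's TPM, at 87.7% and 84.7% untreated and 91.8% and 93.1% treated. It rose slightly (42.6 and 43.8 TPM to 51.4 and 50.6 TPM, log2 fold change 0.23, SE 0.038, adjusted p = 0.00315 by limma), while Pdk2 fell from 1.51 and 1.80 TPM to 0.766 and 0.539 TPM (log2 fold change -0.68, adjusted p = 0.00393 by limma).

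In the TCA cycle the falls reached every stage after citrate synthase. Cs, which condenses acetyl-CoA with oxaloacetate, was the 1 gene of the cycle that rose, from 251 and 244 TPM to 269 and 263 TPM (log2 fold change 0.10, SE 0.028, adjusted p = 0.0234 by limma). The step is small, and the call was lost without NT02 (adjusted p = 0.105 by limma), without PolyIC01 (0.118) and under 3 other settings, with a range of 0.0187 to 0.118 over 14 alternatives. In 14 of 16 tested genes of the cycle both treated libraries lay below both untreated ones, a pattern that 42.4% of all tested genes shared. The summed level was 2386 and 2355 TPM untreated and 1979 and 1983 TPM treated. Idh1 and Mdh1 act in the cytosol, and without them 10 of the other 14 tested genes fell (71.4%, against 32.5% of all genes tested). The count of 12 falls was the same without each library in turn. Proliferation genes fell in the same libraries (summed level 1528 and 1488 TPM against 734 and 726 TPM), and their part in the falls of the cycle was not tested.

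Isocitrate dehydrogenase 3, the NAD-dependent enzyme of the cycle, is built from alpha, beta and gamma subunits, and the calls of their genes differed. Idh3g (chrX:73778963-73786897), the regulatory gamma subunit, was at 74.7 and 75.3 TPM untreated and 32.6 and 34.5 TPM treated, a ratio of 0.447 (log2 fold change -1.14, SE 0.042, adjusted p = 1.28e-05 by limma). This was the largest fall of the 38 genes on the log2 scale. Idh3a (chr9:54586511-54604662), the catalytic alpha subunit, fell from 47.4 and 48.2 TPM to 30.6 and 31 TPM (log2 fold change -0.62, SE 0.039, adjusted p = 7.89e-05 by limma). Idh3b, the beta subunit, was at 115 and 111 TPM and 108 and 105 TPM and did not pass (log2 fold change -0.08, SE 0.033, adjusted p = 0.071 by limma), although its groups did not overlap. The Idh3g to Idh3b ratio was 0.652 and 0.677 in untreated and 0.302 and 0.329 in treated libraries, and the Idh3a to Idh3b ratio 0.414 and 0.434, then 0.283 and 0.296. A predicted second transcript of Idh3g took 0.307% of its TPM in NT01, 17.4% in NT02 and 26.6% and 24% in the treated libraries, and the fall was kept under all 14 alternatives (log2 fold change -1.41 to -1.10).

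The Idh3g promoter is shown as that of the gene with the largest fall; it lies on the minus strand of GRCm38.p6 (chrX:73786848-73787147). Capitals mark its single ACGTG, at -198 from the start. It holds the same core letters as the promoters of the hexokinase genes that rose.
Idh3g: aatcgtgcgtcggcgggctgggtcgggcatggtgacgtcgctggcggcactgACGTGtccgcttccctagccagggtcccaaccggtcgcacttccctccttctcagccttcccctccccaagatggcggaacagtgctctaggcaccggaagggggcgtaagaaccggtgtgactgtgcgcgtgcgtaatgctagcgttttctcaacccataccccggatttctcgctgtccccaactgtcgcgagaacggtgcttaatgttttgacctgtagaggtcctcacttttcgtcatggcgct

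Among the NADP-dependent isozymes, the cytosolic Idh1 fell (log2 fold change -0.32, adjusted p = 0.00235 by limma). The mitochondrial Idh2 was at 0.0674 and 0.129 TPM untreated and 0.228 and 0.124 TPM treated, far below the limit. Idh2 thus held 0.0247% to 0.115% of the TPM summed over the isocitrate dehydrogenase genes.

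All 4 genes from 2-oxoglutarate to succinate fell. Suclg2 (chr6:95473009-95718858), the GTP-forming beta subunit of succinyl-CoA synthetase, went from 7.33 and 7.61 TPM to 3.83 and 4.57 TPM (log2 fold change -0.71, SE 0.096, adjusted p = 0.00157 by limma). Suclg1, the shared alpha subunit, fell with a log2 fold change of -0.15 (adjusted p = 0.00746 by limma). The Suclg2 to Suclg1 ratio was 0.0694 and 0.0704 untreated and 0.0399 and 0.0473 treated, with no overlap. Sucla2, the ATP-forming beta subunit, held 86.8% and 87.7% of the beta subunit TPM untreated and 91.8% and 90.8% treated. Its ratio to Suclg1 was 0.455 and 0.502 untreated and 0.447 and 0.469 treated, and there the groups overlapped. Ogdh and Dlst, the E1 and E2 subunits of the 2-oxoglutarate complex, fell with log2 fold changes of -0.47 and -0.37 (adjusted p = 0.00321 and 0.000476 by limma).

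From succinate to oxaloacetate 5 of 7 genes fell, and succinate dehydrogenase, which is also complex II of the respiratory chain, was split. Sdha, its flavoprotein, and Sdhd, a membrane anchor, fell with log2 fold changes of -0.18 and -0.31 (adjusted p = 0.002 and 0.000395 by limma). Sdhb, the iron-sulphur subunit, was at 121 and 109.8 TPM and 115 and 116 TPM, and Sdhc, the other anchor, at 209.7 and 213 TPM and 209 and 205 TPM; neither passed (adjusted p = 0.954 and 0.321 by limma). The Sdhd to Sdhb ratio was 1.29 and 1.44 untreated against 1.09 and 1.11 treated. Whether these subunits differ in fold change was not tested.

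Fh1 (chr1:175601378-175625635), fumarate hydratase, fell from 167 and 168 TPM to 119 and 124 TPM (log2 fold change -0.46, SE 0.032, adjusted p = 0.00011 by limma). Mdh1 (chr11:21556692-21571934), the cytosolic malate dehydrogenase, fell from 179.6 and 178 TPM to 123 and 124 TPM (log2 fold change -0.53, SE 0.026, adjusted p = 3.35e-05 by limma). Mdh2, the mitochondrial isozyme and the most abundant gene of the cycle, fell from 549 and 544 TPM to 417 and 422 TPM (log2 fold change -0.38, SE 0.023, adjusted p = 6.78e-05 by limma). The libraries of each group lay close together for all 3 genes, and the groups did not overlap. Against Cs, the next enzyme of the cycle, the Mdh2 ratio of TPM was 2.19 and 2.23 untreated and 1.55 and 1.61 treated.

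Other genes tied to these pathways, from isozymes of the same steps to transporters, branch pathways and transcription factors, are given for context as 9 lists with 119 genes. Of 88 tested, 22 rose and 36 fell, with a median log2 fold change of -0.08. Over all genes tested, 28.4% rose and 32.5% fell. The share of related genes that rose was slightly below that background, and the share that fell was above it. Neither difference was tested. The higher share of falls depended on the libraries kept. Without PolyIC01 or without PolyIC02, the share that fell was close to that of all genes in the same fit. The counts given for each list are to be read against the shares of 28.4% and 32.5%, since a call in itself was common. Among the 10 tested isozymes and enzymes of the same steps, 1 rose and 6 fell: Pgam2, a minor phosphoglycerate mutase, rose (0.42), and Bpgm (-0.49), Eno3 (-0.18) and Sucla2 (-0.21) were among the falls. The Sucla2 call (adjusted p = 0.0417 by limma) was lost without NT02 (0.119), without PolyIC01 (0.159) and without PolyIC02 (0.0588), and over 14 alternatives it ran from 0.00339 to 0.159. The calls of Pgam2 (0.0624), Eno3 (0.0726) and Bpgm (0.0807) were lost without PolyIC01, PolyIC01 and PolyIC02 in turn, Eno3 also without PolyIC02 (0.0804) and Bpgm also without NT02 (0.0541), all adjusted p by limma.

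Glucose enters through transporters, and 2 of the 6 tested genes of the transporter list rose. Slc2a1, the widespread glucose carrier GLUT1, was at 19.4 and 24.9 TPM untreated and 55.6 and 57 TPM treated (log2 fold change 1.32, SE 0.12, adjusted p = 0.000526 by limma). Slc2a6, a lysosomal hexose carrier, was at 92.8 and 87.7 TPM and 254 and 255 TPM (log2 fold change 1.49, SE 0.035, adjusted p = 3.1e-06 by limma). Both rose with the hexokinases, and Slc2a3 stayed at 0.220 to 0.306 TPM, below the limit. Slc2a8 fell (-0.98), as did the lactate carrier Slc16a1 (-0.47) and its chaperone Bsg (-0.39; adjusted p = 0.0209 by limma, 0.14 without PolyIC01 and 0.0728 without PolyIC02, from 0.000963 upwards over 14 alternatives). Slc16a3 did not pass (log2 fold change 0.20, SE 0.37, adjusted p = 0.674 by limma): without NT01 it fell (-0.30) and without NT02 it rose (0.70).

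Of 11 tested regulators of glycolytic and pyruvate flux, 2 rose and 2 fell. Mpc2, a subunit of the mitochondrial pyruvate carrier, fell from 124 and 124 TPM to 83.1 and 84 TPM (log2 fold change -0.56, SE 0.028, adjusted p = 3.34e-05 by limma), while its partner Mpc1 was at 117 and 113 TPM and 117 and 116 TPM (log2 fold change 0.02, SE 0.03, adjusted p = 0.539 by limma). The Mpc2 to Mpc1 ratio was 1.06 and 1.10 untreated and 0.710 and 0.722 treated. Pdp2, a pyruvate dehydrogenase phosphatase, rose (0.27; adjusted p = 0.0195 by limma, but 0.0531 without NT02, 0.106 without PolyIC01 and 0.397 with curated transcripts alone, where its sign changed), and Pfkfb4 did not pass (0.23; adjusted p = 0.124 by limma). Of 4 assembly factors of succinate dehydrogenase, Sdhaf1 rose from 21 and 20.2 TPM to 38.4 and 37.8 TPM (log2 fold change 0.86, SE 0.046, adjusted p = 4.16e-05 by limma), Sdhaf3 rose (0.22) and Sdhaf4 fell (-0.30). The Sdhaf3 call was lost without any 1 of the 4 libraries (adjusted p from 0.0564 to 0.159 by limma), and that of Sdhaf4 without PolyIC01 (0.0518).

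At the exits of the cycle, 5 of 19 tested genes rose and 8 fell. Acod1, which diverts cis-aconitate to itaconate, was at 1.10 and 1.04 TPM untreated and 112 and 106 TPM treated (log2 fold change 5.73, SE 0.06, adjusted p = 4.21e-07 by limma). It was the largest change among all the enzyme genes listed. Got1, the cytosolic aspartate aminotransferase, rose from 122 and 119.6 TPM to 212 and 205 TPM (log2 fold change 0.78, SE 0.03, adjusted p = 1.51e-05 by limma), and Gpd1l, a glycerol phosphate dehydrogenase homologue, fell (-0.73; adjusted p = 0.00013 by limma).

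Among factors known to act on these genes, Hif1a rose from 189.8 and 184 TPM to 238 and 232 TPM (log2 fold change 0.33, SE 0.029, adjusted p = 0.000288 by limma), a call lost with curated transcripts alone (adjusted p = 0.136 by limma; range over 14 alternatives 0.000143 to 0.136). Of the 13 tested genes on the hypoxia-inducible factor list, 3 rose and 4 fell. Ddit4, a stress-induced inhibitor of mTOR signalling, rose (0.84), while Egln1 (-0.68) and Ankrd37 (-0.42) fell; both falls were lost without PolyIC01 (adjusted p = 0.0975 and 0.06 by limma) or PolyIC02 (0.0703 and 0.0844), with lowest values of 1.9e-05 and 0.00117 over 14 alternatives. Myc, a driver of glycolytic and proliferative genes, fell from 117 and 109.8 TPM to 46.7 and 47.8 TPM (log2 fold change -1.25, SE 0.042, adjusted p = 9.54e-06 by limma), and its partner Max rose (0.58; adjusted p = 2.39e-05 by limma). Nrf1, a regulator of nuclear-encoded mitochondrial genes, fell (-0.44; adjusted p = 0.00117 by limma, 0.0692 with curated transcripts alone). Of 8 tested genes on the list of transcription regulators, 2 rose and 3 fell.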

How the data were processed

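RNA of 3 untreated and 3 poly(I:C)-treated samples was sequenced; GRCm38, kallisto 0.42.4 and bcl2fastq 2.20.0.422 are named in the submitters' processing notes, without roles. Each deposited column sums to 1000000, so the authors' values per RefSeq transcript were read as TPM, although the table is labelled FPKM. The strand setting of the quantification was not given in the sources used here; antisense partners may share reads. The header holds 5 names for 6 value columns; the 4 used keep their group however it is read, and 2 further per-sample columns were left out. Of 107384 transcripts, 86714 (80.8%) matched a symbol in the RefSeq table (GRCm38.p6), holding 91.8% to 92.2% of each library's TPM, and were summed per gene. Genes averaging 0.5 TPM or more were tested on log2(TPM + 1) with limma 3.58.1 in R 4.3.3 (trend, robust, 2 residual degrees of freedom). P-values were adjusted by Benjamini-Hochberg over 12517 genes. A check on simulated data came first, and it required recovery only of log2 changes of 1 or more. Most called changes of the 40 genes were smaller. Python 3.11.15, matplotlib 3.10.9, numpy 2.4.6 and pandas 2.3.3 made tables and plots. The 40 genes, the lists and the naming rule were chosen with earlier results of these data known: full values for the 6 largest rises and falls that passed, hexokinase, phosphofructokinase and lactate dehydrogenase genes, Pkm, Pdk1, Cs, Fh1 and Gapdh; up to 3 passing genes per related list and 13 set genes. Alternatives changed the pseudocount, filter, moderation, scaling, transcripts counted and libraries.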

Additional observations from a re-analysis of the deposited data

How the results depend on the processing

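Of 24 called enzyme genes, 19 kept their call under all 14 alternatives, and 11 of the 14 not called were called under at least 1. Leaving out 1 library at a time, the falls in glycolysis ranged from 3 to 10 (10 without NT01, 5 without NT02); the rises in the TCA cycle from 0 to 1; the rises among related genes from 12 to 20 (12 without PolyIC01) and their falls from 23 to 34 (23 without PolyIC02). The TCA cycle had 0 rises without trend and robust moderation, with median-centred values and with quantile normalization, where Cs missed the threshold. The cause was not tested. With 1 library left in a group, limma assumes that it varies like the other group. With curated transcripts alone, the sign changed for Pfkfb3 (0.0587), Pdp2 (-0.21, adjusted p = 0.397 by limma) and Pcx (0.26, adjusted p = 0.31 by limma); for Slc16a3 it changed without NT01 (-0.2984), against 0.6967 without NT02. No alternative moved a count over all genes by more than 1.5 times. The alternative with protein-coding transcripts only was added after the data were seen. No paired analysis was possible because the header does not settle the replicate numbers of the columns after NT01. Depth is unknown, so the precision of low genes such as Ldhb and Idh2 cannot be given.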

Other observations

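Genes of pathways that branch from glycolysis were called in both directions. Such calls were common, since 28.4% of all genes tested rose and 32.5% fell. Of 7 pentose phosphate genes, 3 rose and 3 fell: the first enzyme G6pdx, which makes NADPH, fell from 37.3 and 37.4 TPM to 28.3 and 29.6 TPM (log2 fold change -0.36, SE 0.044, adjusted p = 0.00107 by limma), while Pgd, which makes NADPH 2 steps later, rose from 99.1 and 106 TPM to 161 and 152 TPM (log2 fold change 0.60, SE 0.048, adjusted p = 0.000191 by limma). In the part that rearranges sugars, Rpe (0.58) and Taldo1 (0.26) rose and Tkt fell (-0.43). Of 10 tested genes of gluconeogenesis and glycogen, 2 rose and 6 fell. Pgm1, a phosphoglucomutase gene, rose from 49.1 and 65.3 TPM to 91.2 and 94.4 TPM (log2 fold change 0.70, SE 0.15, adjusted p = 0.0183 by limma), a call lost without PolyIC01 (adjusted p = 0.158 by limma) or PolyIC02 (0.16), the highest of 14 alternatives that start at 4.52e-06. Gys1, glycogen synthase, fell (-0.49), as did G6pc3 (-0.50) and Pcx, which makes oxaloacetate from pyruvate (-0.60), the last a call lost with curated transcripts alone.

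The malate-aspartate shuttle, which carries reducing power of cytosolic NADH into mitochondria, was picked from the fixed lists after its values were seen. Its cytosolic aminotransferase Got1 rose, while the mitochondrial Got2 fell from 478 and 489 TPM to 411 and 409 TPM (log2 fold change -0.24, SE 0.024, adjusted p = 0.000502 by limma). Both malate dehydrogenase genes fell, and of its carriers Slc25a11 and Slc25a12 did not pass while Slc25a13 rose (0.18; adjusted p = 0.0339 by limma). Glud1, which feeds glutamate into the cycle, fell from 154 and 154 TPM to 110.0 and 109 TPM (log2 fold change -0.49, SE 0.026, adjusted p = 4.35e-05 by limma).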
